A study of Mus musculus with 24 samples.

Results

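The comparison concerned Foxa1 binding in iHep_4a1 cells mapped with and without EGS, a term carried by some sample titles. It used 3 of the 24 samples of the series, which are 3 of its 14 peak lists and hold 4913 of its 26332 peaks. The members were taken by title and antibody label: within line iHep_4a1 and the Foxa1 antibody, the EGS lists of culture 1 (940 peaks, run code R164) and culture 2 (542 peaks, run code R170) were set against the single list without EGS, from culture 2 (3431 peaks, run code R225). All 3 lists came from chromatin immunoprecipitation followed by sequencing (ChIP-seq) of C57BL/6 mouse embryonic fibroblasts of 13.5 days post coitum that had been infected with Foxa1 and Hnf4alpha and had reached the iHep (induced hepatocyte-like) stage. The groups differed in the EGS label and in the run code, and the labels do not say whether the cultures are separate inductions or 1 clone. The questions were which EGS peaks were missing from the longer list, where they ranked, how wide and how clustered they were, and whether both EGS lists held them.

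Foxa1 is a forkhead transcription factor. It is called a pioneer factor because it can bind its sites on nucleosomal DNA, and in liver it acts at enhancers together with the nuclear receptor Hnf4a. In ChIP protocols EGS commonly names a long-armed crosslinker that joins proteins to each other before formaldehyde fixes them to DNA. The labels do not spell the term out, so it is used below only as a label.

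The deposited lists differed in more than length. The EGS peaks of culture 1 had a median width of 143 bp (range 94 to 2820 bp) and covered 162.9 kb. Those of culture 2 had a median width of 144.5 bp (97 to 925 bp) and covered 92.99 kb. The non-EGS peaks had a median width of 417 bp (317 to 1269 bp) and covered 1487 kb. Thus no non-EGS peak was as narrow as the median EGS peak of either culture. The score in the last column, the authors' own value for each peak, ran from 5.13 to 155.5 (median 9.82), from 5.05 to 107.7 (median 10.2) and from 5.87 to 420.6 (median 20.1). Peak names differed too. In the EGS lists they carried no sample prefix, while in the non-EGS list each carried a prefix that begins with F3, includes Foxa1 and is not explained by the labels. The list was kept under its label, line 4a1 and culture 2, and whether the prefix names the same sample cannot be told from the sources used here. Many peaks of the EGS lists shared a score. The 940 peaks of culture 1 held 121 distinct values, with 108 peaks at 9.82, and the 542 peaks of culture 2 held 214. Scores were therefore used only as ranks within a list, given as percentiles with 100 as the highest. The files hold no read counts, so the depth of each library is unknown. With 2 lists against 1 there are 3 assignments and the smallest two-sided exact p is 0.333, so no test between the groups was made. A range after a share is its 95% Clopper-Pearson (exact) interval, counted over peaks, which reflects counting error alone. Some shares are given without it. Peaks of 1 list are not replicates.

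The highest-ranked site was the same in all 3 lists. The region on chromosome 10 from 86306948 to 86309767 (mm9, as all coordinates here) ranked first in each, with scores of 155.5 in EGS culture 1, 107.7 in EGS culture 2 and 420.6 without EGS. The region on chromosome 17 from 35848354 to 35849092 followed, at percentiles of 99.8 in each list. The third, on chromosome 9 from 102898418 to 102898979, had scores of 28.3, 28.2 and 128.9. A further site on chromosome 10 (120284345 to 120284857) and one on chromosome 4 (3733954 to 3734883) reached mean percentiles of 99.3 and 99.2. These 5 regions also held peaks in 5 to 8 of the other 11 lists of the series. The regions on chromosomes 10 and 17 are the 3 highest peaks that each EGS list shared with the non-EGS list.

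Below the top, a large share of EGS peaks had no counterpart. Of the 940 EGS peaks of culture 1, 361 did not overlap a non-EGS peak by even 1 bp (38.4%, 35.3 to 41.6). The share among the 542 EGS peaks of culture 2 was 41.5% (37.3 to 45.8). These shares, 38.4% and 41.5%, are the background for subsets of all peaks below. In culture 2, 96 absent peaks lay in 3 dense runs, a dense run being 5 or more peaks of 1 list, each starting within 5 kb of the end of the one before. Outside them, 129 of 446 peaks were absent (28.9%, 24.8 to 33.4), an interval that does not reach that of culture 1. Subsets of culture 2 taken outside the dense runs are to be read against this 28.9%. With the dense runs counted in, the intervals of the 2 cultures overlapped. With the non-EGS list shortened to its top-scoring peaks, as many as each EGS list holds, the absent shares were 66.1% (62.9 to 69.1) and 69.4% (65.3 to 73.2).

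Few absent peaks lay close to a non-EGS peak. In culture 1 the nearest non-EGS peak lay at a median of 142.1 kb (quartiles 30.0 and 348.3 kb), and 21 of the 361 lay within 1 kb of one. In culture 2 outside the dense runs the median was 137.6 kb (39.6 and 417.2 kb), and 5 of 129 lay within 1 kb. Within 10 kb the counts were 44 (12.2%) and 13 (10.1%). The smallest gaps were 11 and 15 bp.

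Shared peaks, in contrast, sat well within their counterparts. Of the 579 shared peaks of culture 1, 510 (88.1%) lay wholly inside a non-EGS peak, with a median distance of 46.5 bp between centres. Of the 317 shared peaks of culture 2, 309 (97.5%) lay wholly inside one, with a median distance of 32 bp. The non-EGS peak was wider by a median of 2.88 times and 3.27 times. No EGS peak of either list overlapped more than 1 non-EGS peak. Ranks corresponded only loosely: the Spearman correlation of the 2 scores across shared peaks was 0.30 in culture 1 and 0.20 in culture 2, given as a description over 579 and 317 peaks of the same libraries. The top 20% of culture 1 matched non-EGS peaks at a median percentile of 91.4 and the bottom 20% at 67.3. In culture 2 these medians were 93.3 and 81.8, so even the weakest shared EGS peaks lay on non-EGS peaks in the upper part of that list.

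Rank separated absent from shared peaks differently in the 2 EGS lists. In culture 1 the absent peaks ranked lower, with a median percentile of 43.9 (quartiles 22.8 and 64.5) against 50.8 (28.8 and 80.2) for the shared peaks. In culture 2 they ranked higher, at 56.3 (24.9 and 80.1) against 40.4 (24.9 and 69.7). Outside the dense runs both medians of culture 2 were 40.4. The mean difference over the 2 lists, absent minus shared, was 4.50 percentile points with all peaks and -3.43 without the dense runs, so its direction rested on those runs. In culture 1 alone it was -6.86, and in culture 2 alone 15.9.

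Absent peaks were rare at the very top. No absent peak was among the 10 highest of culture 2, and 1 was among those of culture 1. That peak, on chromosome 3 from 122508100 to 122508754, had a score of 34.2 and rank 6, was 655 bp wide and lay 82.3 kb from the nearest non-EGS peak. EGS culture 2 held a peak there too. The highest absent score was 34.2 in culture 1 and 19.99 in culture 2, where it lay in a dense run. The highest shared scores were 155.5 and 107.7.

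By rank class, with ties leaving the classes unequal in size, the top 20% of culture 1 held 52 absent peaks of 204 (25.5%, 19.7 to 32.0). The shares in the next 3 classes were 40.1%, 39.4% and 40.4%, and the bottom 20% held 85 (48.3%, 40.7 to 55.9). The intervals of the top and bottom classes did not overlap. In culture 2 the order ran the other way with all peaks, from 57 of 109 (52.3%, 42.5 to 61.9) at the top to 35 of 107 (32.7%, 23.9 to 42.5) at the bottom. Outside the dense runs it ran from 11 of 63 (17.5%, 9.05 to 29.1) to 34 of 106 (32.1%, 23.3 to 41.8), with overlapping intervals.

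**Figure D1:**
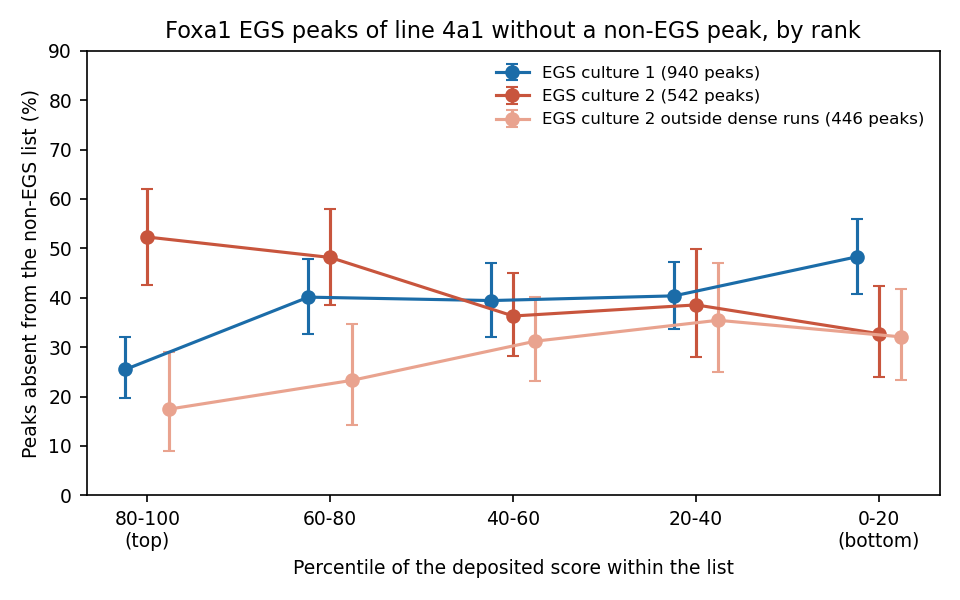
Share of EGS peaks absent from the non-EGS list of line 4a1 (vertical axis, percent), by class of the score percentile within each EGS list from the top 20% to the bottom 20% (horizontal axis). Points are shares and bars exact 95% intervals over peaks. Culture 1 rises from 25.5% to 48.3%, and culture 2 falls from 52.3% to 32.7% with all peaks and rises from 17.5% to 32.1% outside the dense runs.

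Median width showed the same order in both EGS lists. Absent peaks had a median width of 126 bp (quartiles 102 and 150) in culture 1, against 161 bp (125 and 229) for shared peaks. In culture 2 the medians were 141 bp (104 and 224) and 147 bp (118 and 185), close together and with the upper quartiles in the opposite order. Outside the dense runs they were 115 bp (97 and 141) and 147 bp (118 and 185). The narrowest class of culture 1, 94 to 114 bp, was absent in 138 of 245 cases (56.3%, 49.9 to 62.6). The widest, 198 to 2820 bp, was absent in 36 of 234 (15.4%, 11.01 to 20.7). Outside the dense runs of culture 2 the shares were 53 of 113 (46.9%, 37.4 to 56.5) at 97 to 106 bp and 17 of 111 (15.3%, 9.18 to 23.4) at 179 to 925 bp. The classes between them lay between these values in both lists, at 45.4% and 35.8% in culture 1 and 34.2% and 18.9% in culture 2.

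The absent share also fell with width at either level of score. Among culture 1 peaks above the 50th percentile of score, the absent share fell from 57.8% in the narrowest class through 46.4% and 37.3% to 13.3% in the widest. Among those at or below it, the share fell from 55.5% through 44.4% and 33.7% to 22.6%. In culture 2 outside the dense runs the higher-scoring peaks gave 58.3%, 35.3%, 11.9% and 12.5%, and the lower-scoring ones 43.8%, 33.8%, 23.2% and 22.6%, with little between the 2 widest classes.

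**Figure D2:**
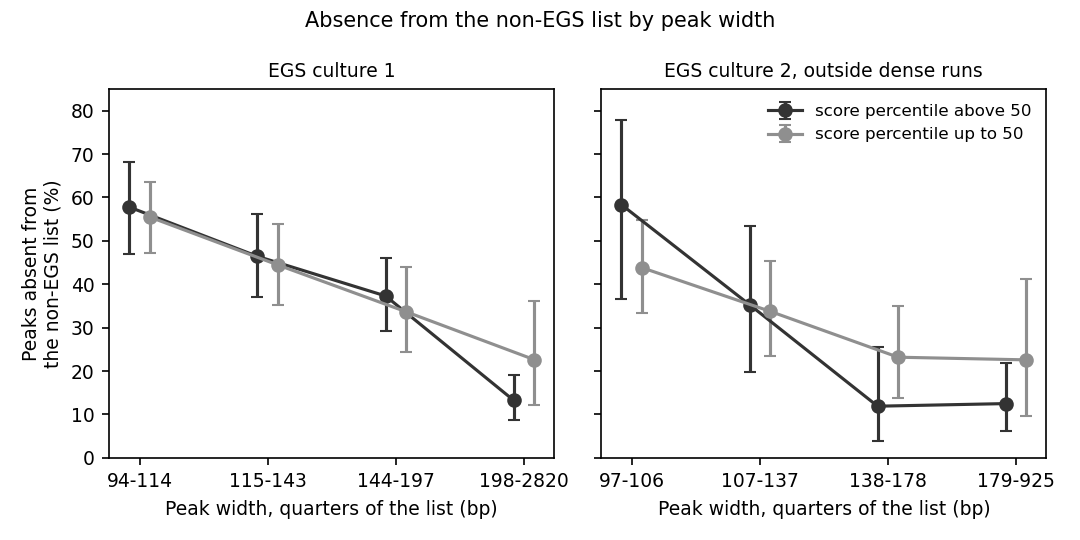
Share of EGS peaks absent from the non-EGS list (vertical axis, percent) in 4 width classes (horizontal axis, bp), for culture 1 and for culture 2 outside the dense runs. Dark points are peaks above the 50th percentile of score, grey points the others, and bars exact 95% intervals. In culture 1 the dark points fall from 57.8% to 13.3% and the grey points from 55.5% to 22.6%.

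By this definition dense runs were found in EGS culture 2 and not in the other 2 lists. EGS culture 2 held 3 runs with 96 peaks (17.7% of the list), and EGS culture 1 and the non-EGS list held 0. With runs of at least 3 peaks, EGS culture 1 held 4, with 3 absent and 10 shared peaks, and EGS culture 2 held the same number of runs and peaks as before. All 96 peaks were absent from the non-EGS list, and none overlapped a peak of EGS culture 1. They ranked high in their list, at a median percentile of 79.3, and were wide, at a median of 223.5 bp. They made up 14 of the 18 absent peaks among the 50 highest of culture 2. In the series as a whole, dense runs were not confined to lists labelled EGS. The Foxa3 non-EGS list of line 4a3 held 126 of them, with 928 of its 4317 peaks (21.5%). Over that whole list the median peak width was 180 bp.

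The largest run lay on chromosome 9 from 3000013 to 3038290 and packed 79 peaks into 38278 bp, of which 52.3% was covered. Its scores ran from 7.84 to 19.99, with a median percentile of 80.4. The nearest non-EGS peak was 2294160 bp away. No list of lines 4a2 or 4a3 had a peak in this stretch. The hepatocyte lists of the series, from adult mice of 10 weeks and also labelled EGS, did: the Foxa1 list had 75 peaks there, the Foxa2 list 34 and the Foxa3 list 36. The hepatocyte Foxa1 peaks overlapped all 79 peaks of the run, those of Foxa2 33 and those of Foxa3 35. Repeats and input signal were not analysed for this or the other runs, so peaks in them are not shown to be Foxa sites.

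**Figure D3:**
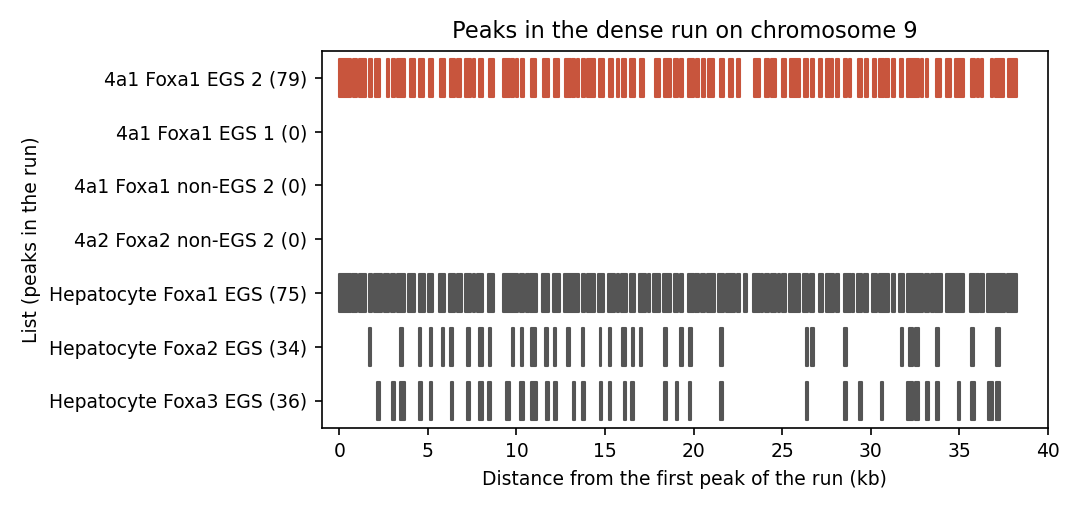
Peaks of 7 lists within the dense run on chromosome 9, as bars along the distance from the first peak of the run (horizontal axis, kb), 1 row a list with its number of peaks in brackets. EGS culture 2 of line 4a1 holds 79 peaks, the hepatocyte lists 75, 34 and 36, and the other 3 rows are empty.

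The other 2 runs were short. The run on chromosome 17 from 39980033 to 39985687 held 12 peaks in 5655 bp, at a median percentile of 61.4. Here iHep lists with and without EGS had peaks as well: 9 in EGS culture 2 of line 4a2, 2 in the non-EGS list of line 4a2 and 3 in EGS culture 1 of line 4a3. The hepatocyte Foxa1, Foxa2 and Foxa3 lists had 4, 5 and 8 peaks there, which overlapped 10, 4 and 6 peaks of the run. Each Flag list had 1 peak there. That of line 4a3 overlapped all 12 peaks of the run and that of line 4a2 overlapped 1. The run on chromosome 2 from 98502400 to 98507480 held 5 peaks in 5081 bp, at a median percentile of 87.6. The hepatocyte Foxa1 list had 4 peaks there, the Flag list of line 4a3 had 2 and the hepatocyte Foxa3 list had 1.

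Away from the runs, absent peaks were scattered. In culture 1, 18 of 361 absent peaks (4.99%, 2.98 to 7.77) had another peak of the list within 5 kb, against 63 of 579 shared peaks (10.9%, 8.46 to 13.7). In culture 2 outside the runs the counts were 6 of 129 (4.65%, 1.73 to 9.85) and 10 of 317 (3.15%, 1.52 to 5.73). By chromosome, the highest absent share of an autosome in culture 1 was on chromosome 2, with 35 of 62 peaks (56.5%, 43.3 to 69.0), and the lowest on chromosome 3, with 17 of 63 (27.0%, 16.6 to 39.7). Chromosome 2 of culture 2 had 10 of 28 absent outside its run (35.7%, 18.6 to 55.9). The X chromosome had few EGS peaks, and the non-EGS list held 63 peaks there. In culture 1, 4 of 5 were absent (80%, 28.4 to 99.5), and in culture 2, 5 of 7 (71.4%, 29.0 to 96.3). These intervals are wide and include the 38.4% and 41.5% over all peaks.

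The 2 EGS lists shared few of their absent peaks. Of the 361 absent peaks of culture 1, 47 overlapped a peak of culture 2 (13.0%, 9.73 to 16.9), against 204 of the 579 shared peaks (35.2%, 31.3 to 39.3). Of the 129 absent peaks of culture 2 outside the dense runs, 48 overlapped a peak of culture 1 (37.2%, 28.9 to 46.2), against 204 of 317 shared peaks (64.4%, 58.8 to 69.6). Within each list the 2 intervals did not overlap. With the dense runs counted in, the share for culture 2 was 21.3% (16.2 to 27.3).

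Merging the peaks of both EGS lists gave 1230 regions, of which 538 had no non-EGS peak. Of these 538, 47 held a peak of both EGS lists (8.74%, 6.49 to 11.5), and 10.6% (7.92 to 13.9) did so when the dense runs were left out. Of the 692 regions with a non-EGS peak, 204 held both (29.5%, 26.1 to 33.0). Recurrence between the EGS lists also followed rank. In culture 1, 54.9% (47.8 to 61.9) of the top 20% and 11.9% (7.54 to 17.7) of the bottom 20% had a peak in culture 2. In culture 2 outside the runs, 82.5% (70.9 to 91.0) of the top 20% and 48.1% (38.3 to 58.0) of the bottom 20% had one in culture 1.

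The 47 regions found in both EGS lists and not in the non-EGS list are the absent ones for which the EGS libraries repeat each other. They lay on 18 chromosomes, were 104 to 655 bp wide (median 158 bp) and sat a median of 145.7 kb from the nearest non-EGS peak, with 2 of them within 10 kb. Their median percentile was 64.5 in culture 1 and 40.4 in culture 2. The highest by mean percentile was on chromosome 15 from 59480028 to 59480179, with scores of 18.6 and 17.1, 41.7 kb from a non-EGS peak. The next was on chromosome 7 from 148662362 to 148662617, with scores of 15.1 and 17.1, and the third on chromosome 5 from 137943169 to 137943327, with scores of 19.8 and 14.5.

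These regions differed in their distance from the nearest non-EGS peak. On chromosome 9, the region from 102910035 to 102910236 (scores 18.6 and 10.8) lay 11.1 kb from the nearest non-EGS peak, beside the shared region that ended at 102898979. On chromosome 10, that from 84038812 to 84039135 (scores 21.0 and 10.8) lay 372.7 kb from one. Of the other 5 among the 10 highest, the region on chromosome 5 spanned 75440514 to 75440638 (scores 14.02 and 14.5) and that on chromosome 12 spanned 78063311 to 78063458 (scores 16.3 and 11.98). The region on chromosome 4 spanned 11504033 to 11504241, that on chromosome 17 12985408 to 12985602 and that on chromosome 11 108873063 to 108873329. All 10 were also in 2 to 7 other lists of the series.

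Regions of a single EGS list outside the dense runs were led by other sites. For culture 1 these were on chromosome 16 (57391616 to 57391717, score 26.2) and chromosome 6 (99472999 to 99473148, score 21.0). The third was on chromosome 2 (152223825 to 152223971, score 19.8) and the fourth on chromosome 19 (38128227 to 38128357, score 18.6). The fourth held a peak in no other list of the series. For culture 2 the highest were on chromosome 12 (3109873 to 3110122, score 18.0) and chromosome 9 (35112803 to 35113173, score 17.4), both of which the hepatocyte Foxa1 list also held. Those on chromosome 12 from 70614725 to 70614823 (score 15.7) and on chromosome 7 from 97433903 to 97434160 (score 15.4) were in no other list.

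The other lists of the series gave a readout that the comparison had not used. Line 4a2, infected with Foxa2 and Hnf4alpha and profiled with a Foxa2 antibody, has a non-EGS list of 11408 peaks. It held 281 of the 361 Foxa1 EGS peaks of culture 1 that the Foxa1 non-EGS list lacked (77.8%, 73.2 to 82.0), and 572 of the 579 shared ones (98.8%, 97.5 to 99.5). For culture 2 outside the dense runs it held 87 of 129 absent peaks (67.4%, 58.6 to 75.4) and 292 of 317 shared peaks (92.1%, 88.6 to 94.8). Outside the dense runs, most absent peaks were thus found in a list without EGS, of another line, factor and run code. The 4a2 peaks at absent sites lay at a median percentile of 76.8 of their list for culture 1 and 70.3 for culture 2. At shared sites the medians were 94.2 and 93.6. Absent from both non-EGS lists were 80 peaks of culture 1 (8.51%, 6.81 to 10.5) and 134 of culture 2 (24.7%, 21.1 to 28.6), of which 42 lay outside the dense runs.

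The EGS lists of line 4a2 held absent and shared peaks at closer shares. EGS culture 1 of line 4a2, which carries the same run code as EGS culture 1 of line 4a1, held 34.6% (29.7 to 39.8) of absent and 45.4% (41.3 to 49.6) of shared peaks of the latter. EGS culture 2 of line 4a2, again of that run code, held 40.7% (35.6 to 46.0) and 38.3% (34.4 to 42.4). For culture 2 of line 4a1 outside the dense runs, the 2 lists held 32.6% and 44.2% of absent and 42.6% and 39.1% of shared peaks. The intervals of absent and shared peaks overlapped in 3 of these 4 pairs. The Foxa3 non-EGS list of line 4a3 held 23.5% of absent and 22.5% of shared peaks of culture 1, and 22.5% and 23.3% for culture 2. The other lists of line 4a3 held fewer absent than shared peaks of culture 1. Its Foxa3 EGS list of culture 1 held 10.8% (7.80 to 14.5) and 19.3% (16.2 to 22.8), and its Flag list 21.3% (17.2 to 25.9) and 31.4% (27.7 to 35.4). For culture 2 outside the dense runs these were 20.2% and 24.9%, and 28.7% and 38.8%, with overlapping intervals.

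**Figure D4:**
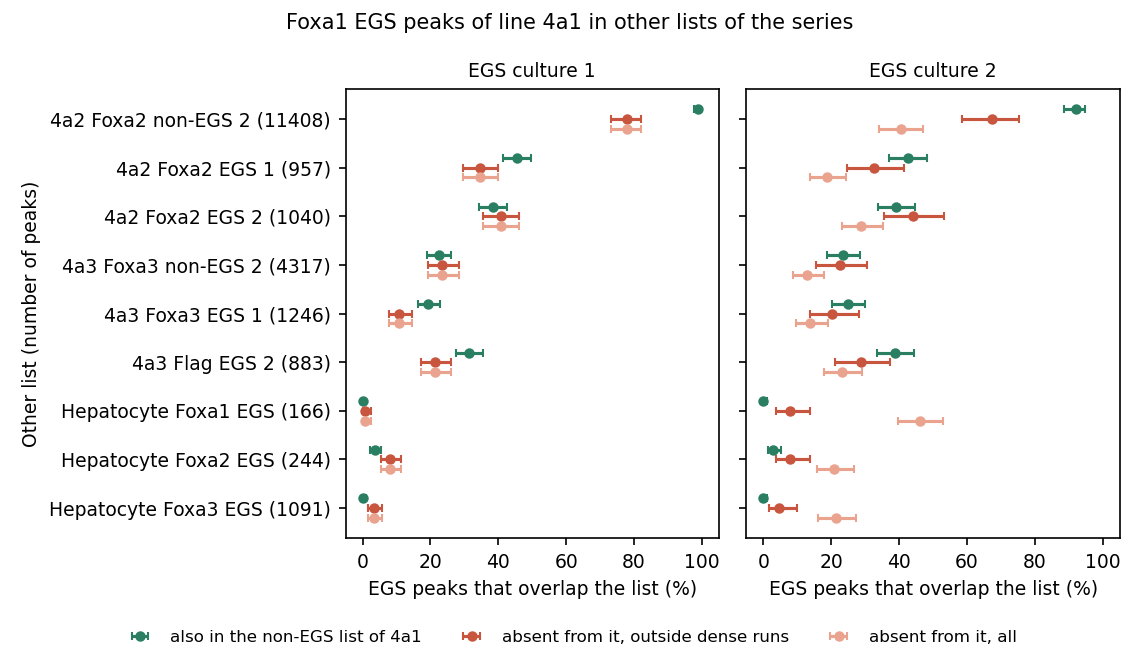
Share of EGS peaks of line 4a1 that overlapped each of 9 other lists (horizontal axis, percent), for peaks shared with the non-EGS list (green), absent from it outside the dense runs (red) and absent from it in all (light red), with exact 95% intervals. The number of peaks of each list is in brackets, and the lists of 21 and 46 peaks are not drawn. The Foxa2 non-EGS list of line 4a2 stands at 77.8% of absent and 98.8% of shared peaks of culture 1.

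In the hepatocyte lists the order was the other way round. Their Foxa1, Foxa2 and Foxa3 lists held 166, 244 and 1091 peaks, of which 50%, 28.3% and 51.2% lay in dense runs. At least 1 hepatocyte list held 32 of the 361 absent peaks of culture 1 (8.86%, 6.14 to 12.3) and 22 of the 579 shared ones (3.80%, 2.40 to 5.70). For culture 2 outside the dense runs the counts were 18 of 129 (13.95%, 8.48 to 21.2) and 9 of 317 (2.84%, 1.31 to 5.32). Within each culture the intervals did not overlap. The hepatocyte Foxa1 list held 3 and 10 of these absent peaks. It held 0 of the 579 and 0 of the 317 shared peaks, which allows shares of up to 0.635% and 1.16% by the exact interval. It also held 0 of the 3431 non-EGS peaks. With 166 peaks in that list, 83 of them in dense runs, few overlaps were possible. The hepatocyte Foxa2 list held 29 and 10 absent and 21 and 9 shared peaks, and the Foxa3 list 12 and 6 absent and 1 and 0 shared peaks.

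These sites also differed in what else held them. All 22 and all 9 shared peaks with a hepatocyte peak were in the Foxa2 non-EGS list of line 4a2. Of the absent ones, 14 of 32 and 3 of 18 were. The hepatocyte lists carry EGS in their titles and the run code R176. Peak sequence, repeats and input signal were not analysed here, and their part in these counts was not tested.

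All 47 regions of both EGS lists were found in at least 1 Foxa2 list of line 4a2: 40 in the non-EGS list, 36 in EGS culture 2 and 26 in EGS culture 1. In line 4a3, 24 were in the Flag list, 18 in EGS culture 1 and 17 in the non-EGS list. The hepatocyte Foxa2, Foxa3 and Foxa1 lists held 9, 5 and 2 of them. Absent peaks of culture 1 alone recurred less: EGS culture 2 of line 4a2 held 111 of those 314 (35.4%, 30.1 to 40.9) against 36 of the 47 peaks that culture 2 shared (76.6%, 61.97 to 87.7). The Foxa3 EGS list of culture 1 held 21 of 314 (6.69%, 4.19 to 10.0) and 18 of 47 (38.3%, 24.5 to 53.6). The 314 also ranked lower than the 47, at median percentiles of 36.8 and 64.5 in EGS culture 1 of line 4a1. Their regions were narrower, at medians of 122.5 and 158 bp. The part of rank and width in this contrast was not tested.

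A part of the absent peaks was seen nowhere else. Here the other EGS list of line 4a1 counted as another list, and the non-EGS list of that line, which holds every shared peak, was left aside. In no other list were 46 of the 361 absent peaks of culture 1 (12.7%, 9.48 to 16.6) and 6 of its 579 shared peaks (1.04%, 0.381 to 2.24). For culture 2 outside the dense runs the counts were 18 of 129 (13.95%, 8.48 to 21.2) and 20 of 317 (6.31%, 3.90 to 9.58), with overlapping intervals. These 46 and 18 absent peaks were narrow, at medians of 115 and 100.5 bp, and ranked low, at median percentiles of 36.8 and 24.9. Their highest scores were 18.6 and 15.7.

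Seen from the longer list, 667 of 3431 non-EGS peaks had a peak in at least 1 EGS list (19.4%, 18.1 to 20.8). EGS culture 1 gave 559 (16.3%, 15.1 to 17.6), EGS culture 2 gave 315 (9.18%, 8.24 to 10.2), and 207 were in both. The found peaks had a median percentile of 76.2 against 44.4 for the 2764 not found, and a median width of 481 against 405 bp. The 207 in both EGS lists had a median percentile of 90.1.

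The share followed rank from the top to the bottom of the list. It was 190 of 343 (55.4%, 49.96 to 60.7) in the top decile, 32.3% in the second and 17.0% in the fifth. In the bottom decile it was 16 of 343 (4.66%, 2.69 to 7.46). Of the 10 highest non-EGS peaks 9 were found, and of the 101 at or above rank 100 with ties, 71 were. The highest one missing from both EGS lists, at rank 4, lay on chromosome 12 from 58417476 to 58418510 with a score of 222. All 3 Foxa2 lists of line 4a2 held it, both EGS lists among them. The next were on chromosome 1 (40021150 to 40021827, score 168.4), chromosome 5 (147035419 to 147036005, score 144.6) and chromosome 6 (34675788 to 34676570, score 128.1), each in the Foxa2 non-EGS list.

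**Figure D5:**
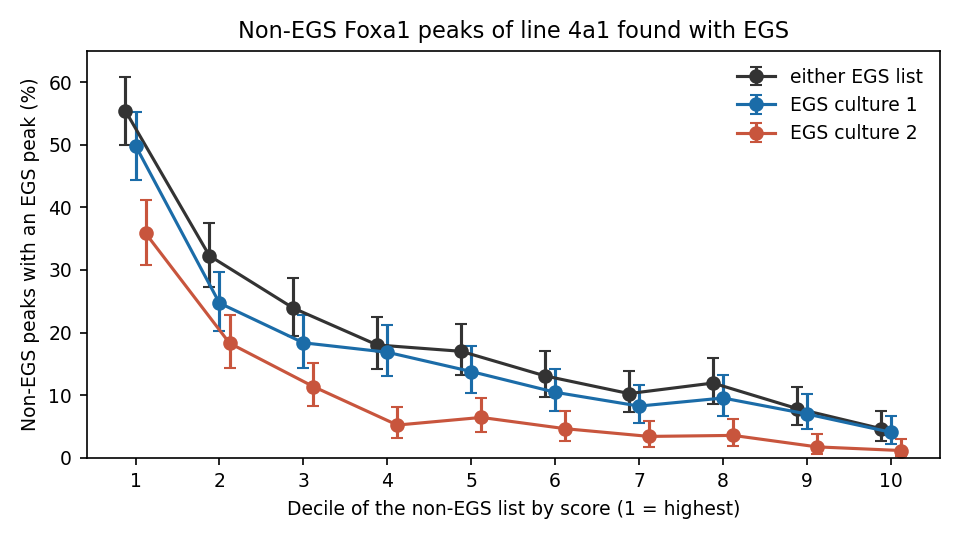
Share of non-EGS Foxa1 peaks of line 4a1 with an overlapping EGS peak (vertical axis, percent), by decile of the non-EGS score from highest to lowest (horizontal axis), for either EGS list and for each culture. Bars are exact 95% intervals over peaks. For either list the share falls from 55.4% in the top decile to 4.66% in the bottom one.

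Over the 3 lists, overlapping peaks merged into 3969 regions. Of these, 2764 were found without EGS only, 314 in EGS culture 1 only and 177 in EGS culture 2 only, 96 of the last in the dense runs. A further 352 were in culture 1 and the non-EGS list, 108 in culture 2 and the non-EGS list, 47 in both EGS lists and 207 in all 3. Median percentiles in EGS culture 1 were 36.8 for its own regions, 50.8 with the non-EGS list, 64.5 with EGS culture 2 and 77.1 in all 3. The Foxa2 non-EGS list of line 4a2 held 205 of the 207 regions in all 3 lists (99.0%). The hepatocyte Foxa1 list, of 166 peaks, held 0.

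Line 4a2 has the same layout of lists, with EGS cultures 1 and 2 (957 and 1040 peaks, run code R164) and a non-EGS list of culture 2 (run code R215). There 119 of 957 (12.4%, 10.4 to 14.7) and 180 of 1040 EGS peaks (17.3%, 15.1 to 19.8) were absent from the non-EGS list. These shares are below the 38.4% and 41.5% of line 4a1, but the list of line 4a2 is the longer one. Shortened to its 3435 top-scoring peaks, close to the length of that of line 4a1, it lacked 350 (36.6%, 33.5 to 39.7) and 456 (43.9%, 40.8 to 46.9) of the EGS peaks. The interval of culture 1 overlaps that of line 4a1. That of culture 2 overlaps the 41.5% (37.3 to 45.8) of line 4a1 with the dense runs counted in, and not the 28.9% (24.8 to 33.4) outside them. In line 4a2, 0 and 6 of the absent peaks counted against the full list lay in dense runs. Absent peaks were narrower than shared ones in line 4a2 as well, at medians of 122 against 143 bp and 116.5 against 139 bp.

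In line 4a1 the EGS label, the run code and peak width change together between the 2 sides, and the non-EGS side is 1 list. The name prefix of that list, given above, adds a doubt about its identity on which every absent and shared value here rests. An effect of EGS, of the run and of the peak calling cannot be told apart in these lists.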

How the data were processed

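ChIP-seq peak lists of 3 libraries of line iHep_4a1 were compared, with the other 11 lists of the series as a further readout. The 10 input samples were not used. The submitters' processing notes name the genome build mm9 and the programs MACS2 (2.1.0), BWA (0.6.2) and bedtools (2.16.2). For their settings, the calling threshold and the use of inputs, nothing is given in the sources used here. Each file belongs to 1 library, so lists were taken as called per library. The authors deposited a score per peak in column 5, of unstated scale. It was read as a rank within its list and nothing more.

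The comparisons used numpy 2.4.6, scipy 1.17.1, pandas 2.3.3 and matplotlib 3.10.9 under Python 3.11.15. A peak was shared at an overlap of at least 1 bp. Starts were written 1-based. The overlap, distance, merging and run steps were tested on simulated data. The named regions were the 10 highest by mean percentile of those in both EGS lists and not in the non-EGS list, and up to 5 of each other class, outside dense runs first. The best-ranked absent peak of culture 1 and the chromosomes singled out were chosen after their values were seen. Members, lists and tests were chosen with earlier results of these data known. Genes near the peaks, GC content and motifs were not analysed here, since no mm9 sequence or annotation was used. Alternatives were another overlap rule, stronger peaks, shortened or merged lists, other run definitions and leaving out each EGS list. Depth is unknown and its precision cannot be given.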

Additional observations from a re-analysis of the deposited data

How the results depend on the processing

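The absent shares moved with the peaks compared. With the top-scoring 50% of the EGS list they were 34.4% (culture 1) and 48.1% (culture 2), and with the top-scoring 50% of both lists 46.6% and 55.2%. With the non-EGS list shortened to the length of the EGS list they were 66.1% and 69.4%. Counting only peaks absent from the non-EGS list of line 4a2 too gave 8.51% and 24.7%. In culture 2 the share was 29.2% with peaks merged within 1 kb and 28.9% without the dense runs. Asking for an overlap of 50% of the narrower peak, or counting peaks within 1 kb as shared, kept both shares within their intervals. The share of non-EGS peaks found in an EGS list was 18.1% when each list kept its top-scoring 50%, and 9.18% to 16.3% with 1 EGS list left out. The share of absent regions in both EGS lists was 6.28% under that same restriction. The rank difference of absent minus shared peaks was -3.43 without the dense runs and from -6.86 to 15.9 with 1 EGS list left out. The share of absent peaks in dense runs, 16.4% over both EGS lists, was 0% to 42.7% with 1 left out. Absent peaks were narrower by median under each alternative run. The shortened list of line 4a2 (36.6% and 43.9%) was an alternative chosen after seeing the data. No paired analysis was possible because the EGS and non-EGS lists share only culture number 2, and no test was made. Unknown depth limits every statement on absent peaks: a missing peak is not shown to be a missing site.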
